A study of Mus musculus with 4 samples.

Results

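The BATF and activator protein-1 (AP-1) transcription factor genes were followed in MC38 cells, a mouse colon carcinoma cell line of wild-type genotype, under 4 conditions. The set holds 10 of the 27179 genes in the count table, chosen by name and matched by NCBI gene ID: Batf, Batf2 and Batf3 (BATF genes), Jun, Junb and Jund (JUN genes), Fos, Fosl1 and Fosl2 (FOS genes) and Atf3. Cells were left untreated or received IFN-γ, each under normoxic (20% oxygen) or hypoxic (1.5% oxygen) conditions, and the study's methods give 5 ng/mL IFN-γ for 24 h as the treatment of most of its experiments. Each condition was sequenced as 1 library, so no condition had a replicate, and differences between single cultures cannot be told apart from effects of the condition.

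AP-1 proteins are basic leucine zipper factors that bind DNA as pairs. JUN proteins pair with themselves or with FOS proteins, and the pairs bind the motif TGANTCA or, mostly with ATF proteins, a longer cyclic AMP response element. Their genes answer quickly to growth factors, cytokines and stress through MAP kinases. BATF proteins carry the zipper but no activation domain of their own. They pair with JUN proteins, and the complex can recruit IRF4 or IRF8 to composite sites in immune cells. ATF3 is a stress-induced partner of JUN proteins that often represses its targets.

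Counts on genes summed to between 34302971 and 34537939 per library, and the TMM factors lay between 0.993 and 1.01. All 6 IFN-γ check genes were raised by IFN-γ and all 6 hypoxia check genes by hypoxia. These genes were chosen with earlier results of these data known, so their calls are no independent test of the treatments. Cxcl9, an IFN-γ check gene, had 8 and 2 counts in the normoxic and hypoxic controls and 99 and 94 with IFN-γ. It passed the filter on low counts only through its IFN-γ libraries. Markers of colon epithelium were absent or low, against the colon label of the line. Cdh1 and Cdx2 had 0 counts in every library, Epcam had at most 2, and the 8 markers of colon epithelium summed to between 2.89 and 3.75 CPM (counts scaled to a common, TMM-adjusted library size). The 6 fibroblast markers summed to between 38.6 and 46.4 CPM, mostly through Pdgfra with 1077 to 1341 counts, while the collagen genes Col1a1 and Col1a2 had 29 to 105 and Lum had 2 to 4. Of 8 immune cell markers, 5 stayed at or under 3 counts in every library the pan-leukocyte gene Ptprc had 2 to 12, and the dendritic cell gene Clec9a had the most, with 19 to 39.

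Per kilobase of exon, Junb and Jund had the highest levels of the set and Batf and Batf3 the lowest. Averaged over the 4 libraries, the levels in CPM per kilobase (RPKM) were 73.1 for Junb, 41.0 for Jund, 23.2 for Fosl1, 19.6 for Jun, 7.19 for Fosl2, 2.0 for Atf3, 1.31 for Batf2, 0.947 for Fos, 0.845 for Batf3 and 0.269 for Batf. Junb lay above 94.5% of the tested genes that have a length, and Batf above 8.83%. Neighbours in this order were not all separate: the ranges over the libraries overlapped for Fosl1 (21.3 to 25.3) and Jun (17.2 to 22.1), and for Fos (0.712 to 1.19) and Batf3 (0.712 to 0.994). The place of Jund depends on its annotated length, which is 1668 bases in GENCODE M21 and 2878 in RefSeq. With the longer one its mean level was 23.8 RPKM, close to that of Fosl1. The place of Fosl2 below Fosl1 also rests on length, 9680 bases against 2033 in GENCODE M21. The place of Batf2 is an average over libraries with and almost without its RNA.

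**Figure D1:**
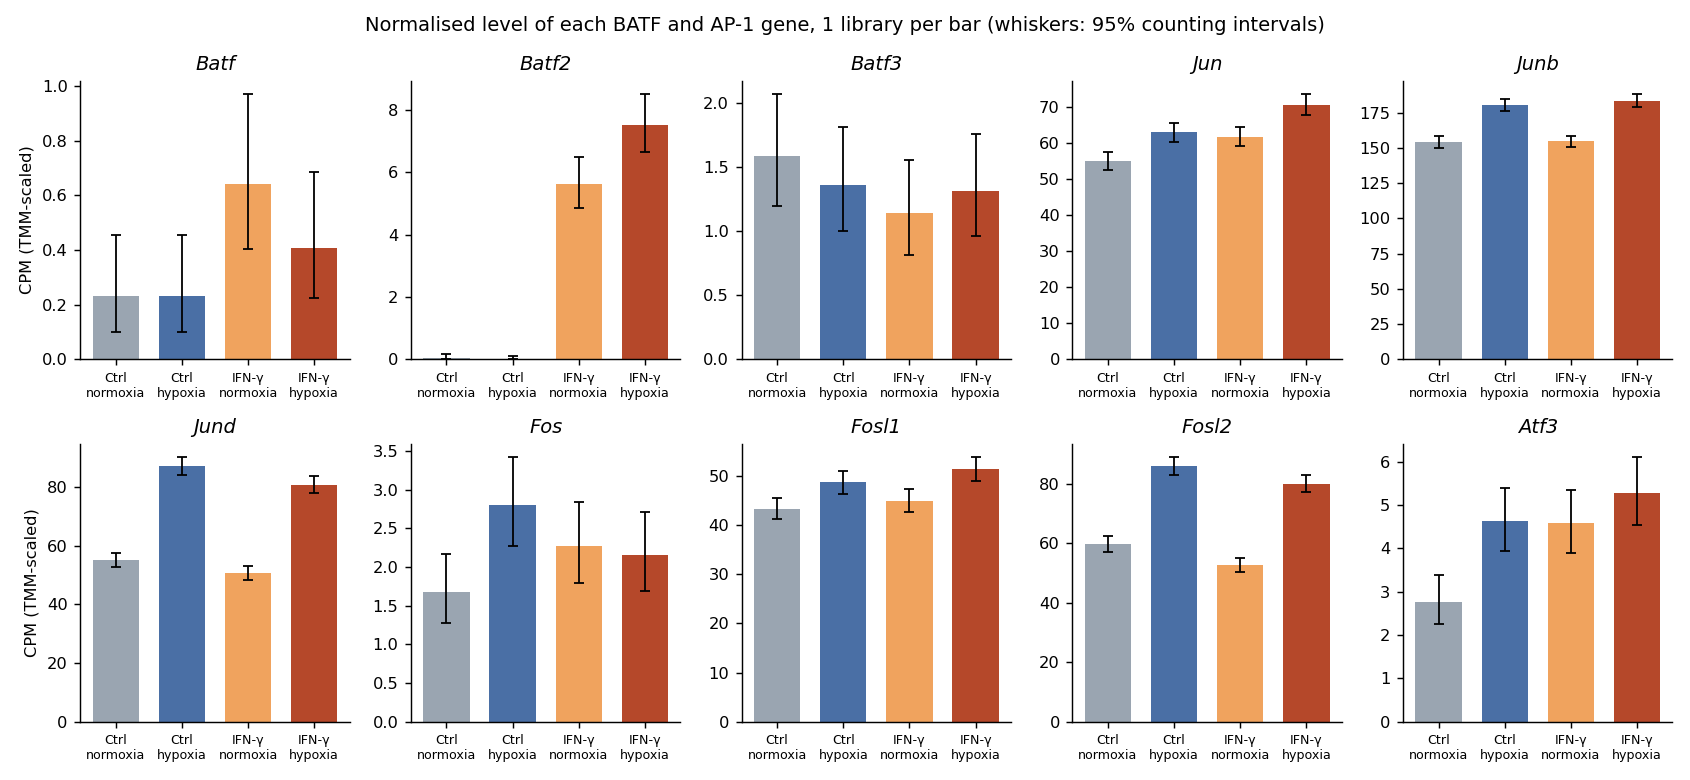
Normalised level of each of the 10 genes in CPM (y axis, starting at 0 and scaled for each gene) in the 4 libraries (x axis), with 1 library per bar and whiskers for the 95% Poisson interval of its count. Batf2 stood at 5.63 and 7.53 CPM with IFN-γ and near 0 without, and Jund and Fosl2 were higher in both hypoxic libraries than in both normoxic ones.

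The effects of IFN-γ and of hypoxia were estimated together for all 13580 genes that passed a filter on low counts, in an additive model over the 4 libraries by the quasi-likelihood test of edgeR, with p-values adjusted by Benjamini-Hochberg. All 10 genes passed the filter, but Batf2 and Batf did so only through their IFN-γ libraries. A gene was called at an adjusted p under 0.05. IFN-γ raised 1 of the 10 genes, Batf2, and lowered none, where 4.76% of all tested genes were raised and 1.1% were lowered. At an unadjusted p under 0.05 the IFN-γ effect also included Jun, Fosl2 and Atf3. Hypoxia raised 4 of the 10, Jun, Junb, Jund and Fosl2, and lowered none, where 8.21% of all tested genes were raised and 6.83% were lowered. At an unadjusted p under 0.05 the hypoxia effect also included Fosl1 and Atf3. The median log2 change of the 10 genes with hypoxia was 0.28, against 0.00 (0.0047) over all tested genes. With IFN-γ these medians were 0.04 and -0.01. The 10 genes were chosen with earlier results of these data known, so these shares and medians are no independent test of the set. With no replicates, the model takes its spread from how far genes depart from additivity, and the adjusted p-values are no substitute for a test over replicate cultures.

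BATF2, also known as SARI, is an interferon-inducible member of the BATF group described mainly in macrophages and dendritic cells. Batf2 (gene 74481, chr19:6164397-6172476 of GRCm38) had 1 count in untreated cells in normoxia, 0 in untreated cells in hypoxia, 193 with IFN-γ in normoxia and 258 with IFN-γ in hypoxia. Both control libraries thus lay below the floor of 3 counts, and both IFN-γ libraries far above it. Against that floor per library the gene was at least 65.0-fold higher under normoxic and at least 86.8-fold higher under hypoxic conditions. Since the gene entered the model only through the libraries where it was high, these bounds and not its p-value describe the difference. Exons of Batf2 overlap those of Arl2 on the opposite strand. Arl2 had 778 to 986 counts in every library, so reads of Arl2 gave at most 1 count on Batf2 in the controls. With IFN-γ given, the level of Batf2 in hypoxia was 1.34 times that in normoxia, or 0.42 on the log2 scale (95% interval 0.15 to 0.70). The additive estimate for hypoxia did not pass the test (adjusted p = 0.331 from edgeR).

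Batf and Batf3 were counted too rarely to follow a moderate change. BATF is needed for several helper T cell programmes, and BATF3 for cross-presenting dendritic cells. Batf (gene 53314, chr12:85686720-85709087) had 8 counts in each control library, 22 in the normoxic and 14 in the hypoxic IFN-γ library. Both IFN-γ libraries were the higher ones, and the log2 changes of 1.42 (95% interval 0.25 to 2.85) and 0.78 (-0.53 to 2.28) were not called together (adjusted p = 0.375 from edgeR). With intervals from halved counts, which allow for 2 counts per sequenced fragment, the normoxic interval was -0.28 to 3.58 and included 0. Batf3 (gene 381319, chr1:191098414-191108943) had 55 and 47 counts in the normoxic and hypoxic controls and 39 and 45 in the IFN-γ libraries, with no interval of any pair excluding 0. Its additive log2 change with IFN-γ was -0.27 (95% interval -0.90 to 0.37). The 8 immune markers summed to 0.953 and 0.868 CPM in the controls and to 1.34 and 1.4 CPM in the IFN-γ libraries, and the part of such cells in the Batf and Batf2 counts was not tested. Most of that difference lay in Clec9a, with 20 and 19 counts in the normoxic and hypoxic controls and 31 and 39 with IFN-γ, whereas Ptprc had 11 and 7 in the controls and 12 and 2 with IFN-γ. The IRF partners of BATF were too low to be tested. Irf4 had 0 counts in every library, and Irf8 had 0, 5, 2 and 12 in the control normoxic, control hypoxic, IFN-γ normoxic and IFN-γ hypoxic libraries.

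The makeup of the BATF group turned over with IFN-γ. Per kilobase of exon, Batf3 made up 85.0% and 83.8% of the summed level of the 3 genes in the control libraries. In the IFN-γ libraries Batf2 made up 65.6% under normoxic and 72.8% under hypoxic conditions, and the summed level was 3.40 and 4.10 RPKM, against 1.17 and 1.02 in the controls. Even then the BATF sum was small beside that of the JUN genes, which ran from 117 to 150 RPKM. These shares rest on single libraries and carry the counting errors of the genes above.

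**Figure D2:**
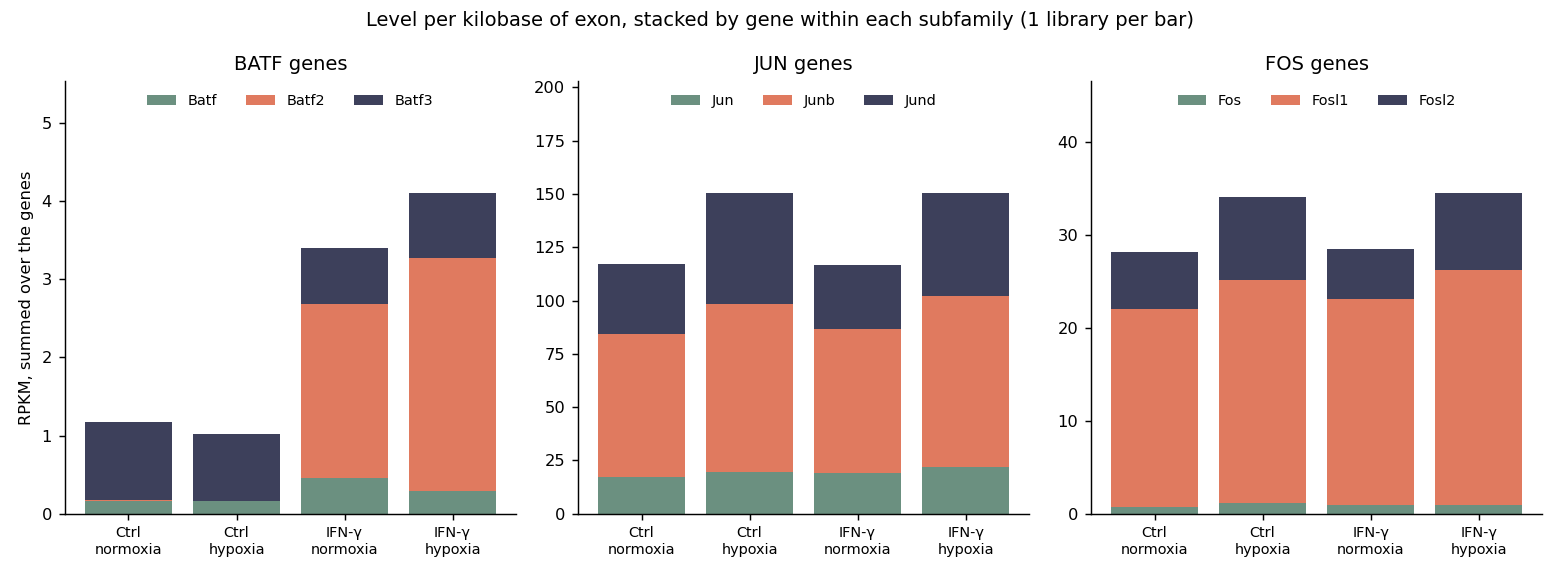
Summed level in RPKM (y axis, starting at 0, a separate scale in each panel) of the BATF, JUN and FOS genes in the 4 libraries (x axis), stacked by gene, with GENCODE exon lengths, 1 library per bar and no error shown. Batf2 makes up 65.6% and 72.8% of the BATF sum with IFN-γ, while the JUN sum stands at 117 in the normoxic and 150 in the hypoxic libraries whether or not IFN-γ was given.

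All 3 JUN genes were called as raised by hypoxia in the additive edgeR model, where 8.21% of all tested genes were raised. Of 7 alternative fits, 7 called Jund, 6 Junb and 3 Jun. Jund had the largest estimate. Its 95% interval (0.53 to 0.80) did not overlap those of Junb (0.12 to 0.35) and Jun (0.06 to 0.33). JUND is the JUN protein that resting cells hold in quantity and is linked to protection from oxidative stress. Jund (gene 16478, chr8:70697739-70700616) had 1908 counts in the normoxic and 3010 in the hypoxic control library, and 1734 and 2769 in the corresponding IFN-γ libraries. Both hypoxic libraries lay above both normoxic ones. The log2 change with hypoxia was 0.66 without IFN-γ (95% interval 0.58 to 0.74) and 0.68 with it (0.59 to 0.76), and the additive estimate was 0.67 ± 0.0686 (SE, adjusted p = 3.38e-20 from edgeR), a 1.59-fold level. Jund was called in all 7 alternative fits by edgeR or DESeq2, with adjusted p up to 0.0213. With IFN-γ its additive log2 change was -0.12 (95% interval -0.25 to 0.02), which was not called. Between the 2 normoxic libraries it was -0.12 (95% counting interval -0.22 to -0.03, or -0.26 to 0.01 from halved counts). Between the 2 hypoxic ones it was -0.11 (-0.18 to -0.03).

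Junb and Jun changed less. JUNB restrains JUN activity in several settings and is a frequent partner of BATF in T cells. Junb (gene 16477, chr8:84976909-84978748) had 5341 and 6243 counts in normoxia and hypoxia without IFN-γ, and 5304 and 6292 with it. The hypoxic libraries were again both above the normoxic ones. Its additive log2 change with hypoxia was 0.24 ± 0.0575 (SE, adjusted p = 6.73e-04 from edgeR), and 6 of 7 alternative fits called it, with adjusted p up to 0.118. Its log2 change with IFN-γ was 0.01 (95% interval -0.10 to 0.13), the narrowest interval of the set. Jun (gene 16476, chr4:95049036-95052222), which encodes the founding AP-1 protein, had 1900 counts in the untreated normoxic library, 2172 with hypoxia, 2113 with IFN-γ and 2417 with both. The control normoxic library was the lowest and the library with both stimuli the highest. Its additive log2 change was 0.20 with hypoxia (SE 0.0695, adjusted p = 0.0363 from edgeR, from 0.0291 to 0.347 in 7 alternative fits, of which 3 called it) and 0.17 with IFN-γ (SE 0.0695, adjusted p = 0.182 from edgeR). The IFN-γ change of Jun was 0.17 in both pairs of libraries, with counting intervals of 0.08 to 0.26 and 0.08 to 0.25. The hypoxia call of Jun thus depended on the fit.

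Within the JUN genes, Junb made up 57.2% of the summed level per kilobase in the normoxic control library and 52.2% in the hypoxic one, and Jund 28.2% and 34.7%. With the RefSeq length of Jund, the share of Junb was 64.8% and 61.1% and that of Jund 18.5% and 23.6%. With GENCODE lengths the summed level was 117 RPKM in both normoxic libraries and 150 RPKM in both hypoxic ones, and with the RefSeq length of Jund it was 103 RPKM in the normoxic and 128 RPKM in the hypoxic control library. Exons of Junb overlap those of Prdx2 on the opposite strand, and Prdx2 had 10425 to 11295 counts, more than Junb. The setting for strand in the counting is not given in the sources used here. Jun and Jund overlap annotated antisense RNAs in the same way. Read in the orientation of the transcripts, no JUN gene shared a 31-base word with another annotated transcript. Opposite strands were not compared, so this does not cover the overlaps above.

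Sequences of RefSeq (GRCm38.p6) were used for the 250 bases before the start of 8 of the 10 genes, all but Batf2 and Fosl1. The windows of the 3 JUN genes are printed because the additive edgeR model called all 3 for hypoxia, the call of Jun depending on the fit. Capitals mark matches, on either strand, to TGANTCA (AP-1 site), TGACNTCA (a site like the cyclic AMP response element), ACGTG (core of the HIF site), TTCNNNGAA (STAT site) and GAAANNGAA (part of IRF sites). These letters were chosen with the values known, and no matches of different motifs overlap in these windows. The windows are chr4:95052223-95052472 (minus strand) for Jun, chr8:84978749-84978998 (minus strand) for Junb and chr8:70697489-70697738 (plus strand) for Jund, each 5′ to 3′.
Jun: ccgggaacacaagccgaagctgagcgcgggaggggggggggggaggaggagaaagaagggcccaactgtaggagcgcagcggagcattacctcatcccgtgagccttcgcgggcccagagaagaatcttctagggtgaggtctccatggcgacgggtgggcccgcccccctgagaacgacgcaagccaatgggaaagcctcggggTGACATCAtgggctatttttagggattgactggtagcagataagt
Junb: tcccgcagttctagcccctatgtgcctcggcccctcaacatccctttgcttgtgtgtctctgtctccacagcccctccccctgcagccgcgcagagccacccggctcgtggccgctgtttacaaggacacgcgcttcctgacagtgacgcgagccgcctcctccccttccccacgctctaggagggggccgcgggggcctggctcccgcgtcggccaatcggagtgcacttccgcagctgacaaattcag
Jund: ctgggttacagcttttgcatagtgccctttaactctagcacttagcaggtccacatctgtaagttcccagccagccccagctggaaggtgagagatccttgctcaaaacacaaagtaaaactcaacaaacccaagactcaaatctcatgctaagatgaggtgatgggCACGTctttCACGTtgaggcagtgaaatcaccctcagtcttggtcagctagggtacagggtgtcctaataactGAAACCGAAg
Jun holds 1 TGACNTCA match, whose first base lies 45 bases before the start. Among all 32851 windows of this length in the table, 7.49% hold that motif. Junb holds none of the 5 motifs. Jund holds 2 matches to ACGTG, at 83 and 74 bases before the start, where 16.6% of all windows hold at least 1, and 1 match to GAAANNGAA at 10 bases, where 7.13% do. The nearest start of Jund in GENCODE M21 is 1210 bases away from the RefSeq one, and which start the cells used was not tested. Batf3, whose log2 change with hypoxia was -0.02, also holds 2 ACGTG matches, at 247 and 246 bases. These overlap and are the 2 strands of the same site. Fosl2, which hypoxia raised, holds none in its window, whose start lies 299 bases from the nearest one in GENCODE M21. Any part of the motif in the hypoxia changes was not tested. Fosl2 holds 2 GAAANNGAA matches and Batf3 1 TTCNNNGAA match. None of the 8 windows holds TGANTCA, which 6.75% of all windows hold. The windows of Batf, Batf3, Fosl2 and Atf3 overlap exons in GENCODE.

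Among the FOS genes hypoxia raised Fosl2 and left the others uncalled. FOSL2 (FRA-2) and FOSL1 (FRA-1) are FOS proteins without the strong activation domain of FOS, and FOSL1 is often high in invasive carcinoma cells. Fosl2 (gene 14284, chr5:32136472-32157840) had 2069 counts in the normoxic and 2972 in the hypoxic control library, and 1806 and 2746 in the IFN-γ libraries. Both hypoxic libraries exceeded both normoxic ones. Its log2 change with hypoxia was 0.52 (95% interval 0.44 to 0.61) without and 0.61 (0.52 to 0.69) with IFN-γ, and the additive estimate of 0.57 ± 0.0682 (SE, adjusted p = 1.33e-14 from edgeR) corresponds to a 1.48-fold level. All 7 alternative fits by edgeR or DESeq2 called it, with adjusted p up to 0.0497. With IFN-γ its additive log2 change was -0.14 ± 0.068 (SE, adjusted p = 0.317 from edgeR). In the pairs of libraries it was -0.18 in normoxia (95% interval -0.27 to -0.09) and -0.10 in hypoxia (-0.18 to -0.03, or -0.21 to 0.01 from halved counts).

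Fosl1 (gene 14283, chr19:5447698-5455938) had 1502, 1684, 1542 and 1762 counts in the control normoxic, control hypoxic, IFN-γ normoxic and IFN-γ hypoxic libraries. The hypoxic libraries were the higher of each pair. The additive log2 change of 0.18 with hypoxia (95% interval 0.04 to 0.33, adjusted p = 0.0800 from edgeR) missed the threshold, and so did every alternative. Its change with IFN-γ was 0.07 (95% interval -0.08 to 0.21). Exons of Fosl1 overlap those of Ccdc85b on the opposite strand, which had 1687 to 1821 counts.

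FOS itself is the classic immediate-early protein, whose RNA lasts only minutes after a stimulus. Fos (gene 14281, chr12:85473890-85477274) had 58 counts in the untreated normoxic library, 97 with hypoxia, 78 with IFN-γ and 74 with both. Of the 4 pairs of libraries, 1 had a counting interval that excluded 0: without IFN-γ the log2 change with hypoxia was 0.74 (95% interval 0.26 to 1.24), and with IFN-γ it was -0.07 (-0.55 to 0.40). Neither additive effect was called (adjusted p = 0.430 for hypoxia and 0.998 for IFN-γ from edgeR). Fosl1 made up between 70.4% and 77.5% of the FOS genes' summed level per kilobase, Fosl2 between 19.1% and 26.1%, and Fos between 2.52% and 3.51%. These shares depend on the annotated lengths, 9680 bases for Fosl2 and 2033 for Fosl1. In counts, Fosl2 exceeded Fosl1 in every library.

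Atf3 (gene 11910, chr1:191170296-191183333) had 96 counts in the untreated normoxic library, 160 with hypoxia, 157 with IFN-γ and 181 with both. The untreated library was the lowest, and the other 3 were close to each other. Each stimulus alone went with a similar difference from the untreated library, a log2 change of 0.74 with hypoxia (95% interval 0.37 to 1.12) and of 0.72 with IFN-γ (0.35 to 1.11), or 1.67-fold and 1.65-fold. In the presence of the other stimulus the log2 changes were 0.21 (95% interval -0.11 to 0.52) and 0.19 (-0.12 to 0.51). The additive estimates of 0.45 for hypoxia (adjusted p = 0.0720 from edgeR) and 0.44 for IFN-γ (adjusted p = 0.183) were not called. The model gives a stimulus the same effect with and without the other, so each estimate lay between the changes in its pairs of libraries. The spread in this fit was pooled over genes.

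**Figure D3:**
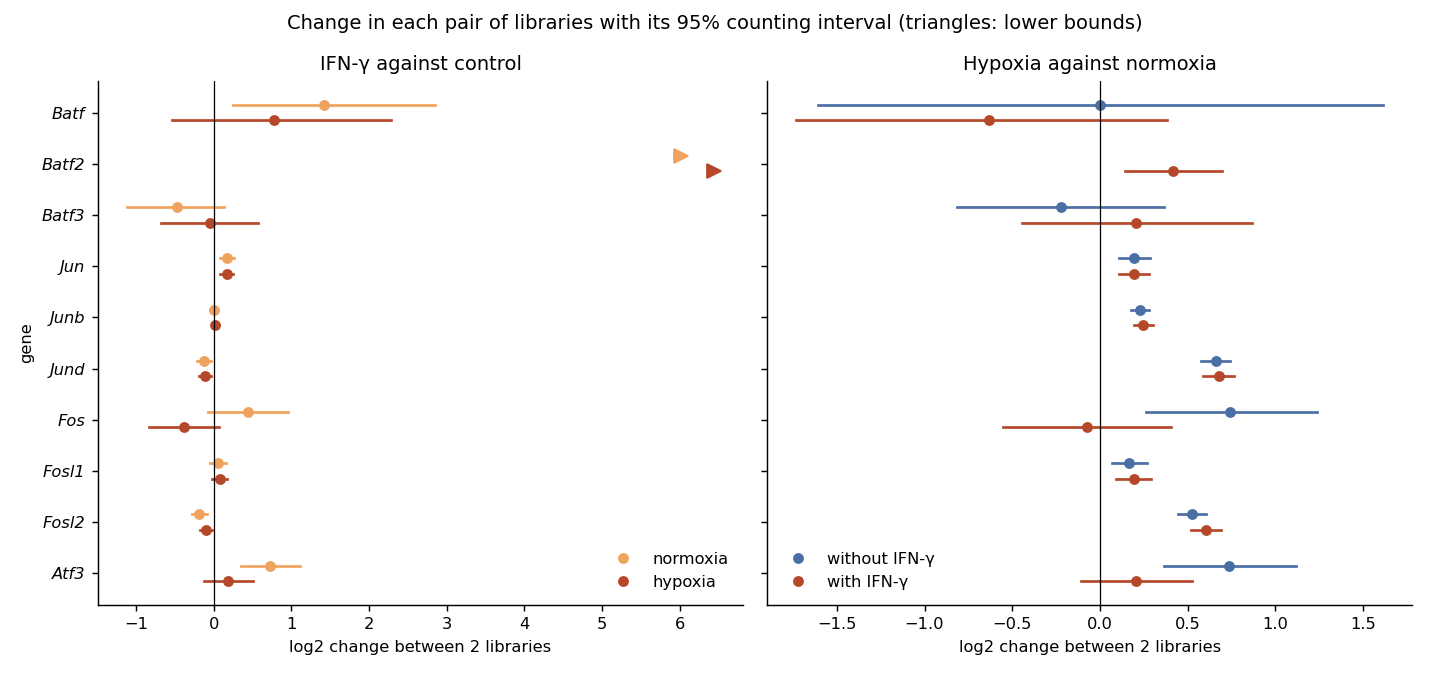
Log2 change between 2 libraries (x axis) for each gene (y axis), with IFN-γ on the left and hypoxia on the right, where points are single pairs of libraries, lines their 95% counting intervals and triangles lower bounds against 3 counts. Jun, Junb, Jund, Fosl1 and Fosl2 lie right of 0 in both hypoxia pairs, Batf2 has no hypoxia value without IFN-γ because both counts lie below 3, and Fos, Batf and Atf3 differ most between the pairs.

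Whether hypoxia altered the IFN-γ change was described by subtracting the IFN-γ change in normoxia from that in hypoxia, which could not be tested without replicates. For the 5 genes whose 4 counts all reached 100 this difference was small: -0.00 (-0.000266) for Jun, 0.02 for Junb, 0.02 for Jund, 0.03 for Fosl1 and 0.08 for Fosl2, all inside the central 95% of the same difference over the 10443 genes that met the same minimum (-0.36 to 0.40). For Atf3 it was -0.53 (95% interval -1.01 to -0.05) and for Fos -0.81 (-1.47 to -0.16). Over 1574 genes with a mean of 50 to 200 counts, a range set after the counts of these genes were seen, the central 95% ran from -0.79 to 0.92. Atf3 lay inside it and Fos slightly outside. From halved counts the intervals were -1.21 to 0.14 for Atf3 and -1.74 to 0.11 for Fos, and both included 0.

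Other genes of the pathway were taken from lists. The counts of each list stand beside the shares over all tested genes: hypoxia raised 8.21% and lowered 6.83%, and IFN-γ raised 4.76% and lowered 1.1%. Among 13 genes of other zipper proteins, the partners or relatives of AP-1, 12 were tested. Hypoxia raised 4 of them (Jdp2, Ddit3, Maff and Nfil3) and lowered 1 (Cebpb), and IFN-γ raised 2 (Cebpb and Mafk), and the median log2 change was 0.12 with hypoxia and 0.14 with IFN-γ. Maff, a small MAF protein, had 771 and 1413 counts in the normoxic and hypoxic controls and 959 and 1492 in the IFN-γ libraries, a log2 change with hypoxia of 0.76 ± 0.0796 (SE, adjusted p = 4.04e-19 from edgeR). Nfil3, a repressor active in lymphocytes and the circadian clock, was raised by hypoxia by 0.48 on the same scale. Cebpb, an inflammatory C/EBP factor, was raised by IFN-γ by 0.56 ± 0.0682 (SE, adjusted p = 1.50e-14 from edgeR) and lowered by hypoxia, with a log2 change of -0.25.

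Of the 13 MAP kinase genes upstream of AP-1, IFN-γ raised 0 and lowered 0 by edgeR's quasi-likelihood test, with 2 at an unadjusted p under 0.05, and DESeq2's Wald test also called 0. At the shares over all tested genes, 4.76% raised and 1.1% lowered, 13 genes would hold few calls or none. Hypoxia raised 3 (Map3k1, Map2k1 and Mapk8) and lowered 2 (Map2k2 and Map2k3). Map3k1, a kinase above JNK and ERK, had 564 and 1069 counts in the normoxic and hypoxic controls and 411 and 1034 in the IFN-γ libraries, a log2 change with hypoxia of 1.12 ± 0.091 (SE, adjusted p = 2.72e-32 from edgeR). Map2k1, which encodes the ERK kinase MEK1, was raised by 0.61, and Map2k3, a kinase of p38, had a log2 change of -0.28. The median over the 13 genes was 0.01 with hypoxia. Of 10 MAP kinase phosphatases, which switch these kinases off, hypoxia raised 2 (Dusp1 and Dusp10) and lowered 2 (Dusp2 and Dusp9), and IFN-γ raised Dusp10 alone. Dusp10, which acts on JNK and p38, had 291 and 373 counts in the controls and 506 and 634 with IFN-γ, a log2 change of 0.79 ± 0.112 (SE, adjusted p = 7.13e-11 from edgeR). With hypoxia the log2 changes were 0.65 for Dusp1 and -0.72 for Dusp2.

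Other immediate-early genes, which share upstream kinases with FOS, were mixed. Of 11 tested among 12, hypoxia raised 1 (Ier3) and lowered 3 (Egr1, Ier2 and Ier5), with a median log2 change of -0.10, and IFN-γ raised Ier5 and lowered Btg2. Egr1, a zinc finger factor induced through the same kinases as FOS, had 425 and 240 counts in the normoxic and hypoxic controls and 420 and 349 in the IFN-γ libraries, a log2 change with hypoxia of -0.53 ± 0.122 (SE, adjusted p = 2.81e-04 from edgeR). Ier5 had a log2 change of -0.62 with hypoxia, and Btg2, an antiproliferative gene, of -0.56 with IFN-γ.

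Among 16 genes known as AP-1 targets 12 were tested. Hypoxia raised 3, among them Lif and Hmox1, and lowered 2 (Plaur and Ccnd1), and the median log2 change was -0.04. IFN-γ raised 4 (Ccnd1, Lif, Spp1 and Hmox1) and lowered 1, with a median of 0.19. Hmox1, which encodes heme oxygenase-1 and is also a target of other stress factors, had 4922 and 8393 counts in the controls and 5388 and 10550 with IFN-γ, a log2 change with hypoxia of 0.87 ± 0.0562 (SE, adjusted p = 2.79e-51 from edgeR). Lif, a cytokine of the IL-6 group, had 669 and 941 counts in the controls and 1412 and 1554 with IFN-γ, a log2 change with IFN-γ of 0.91 ± 0.0803 (SE, adjusted p = 1.50e-27 from edgeR).

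**Figure D4:**
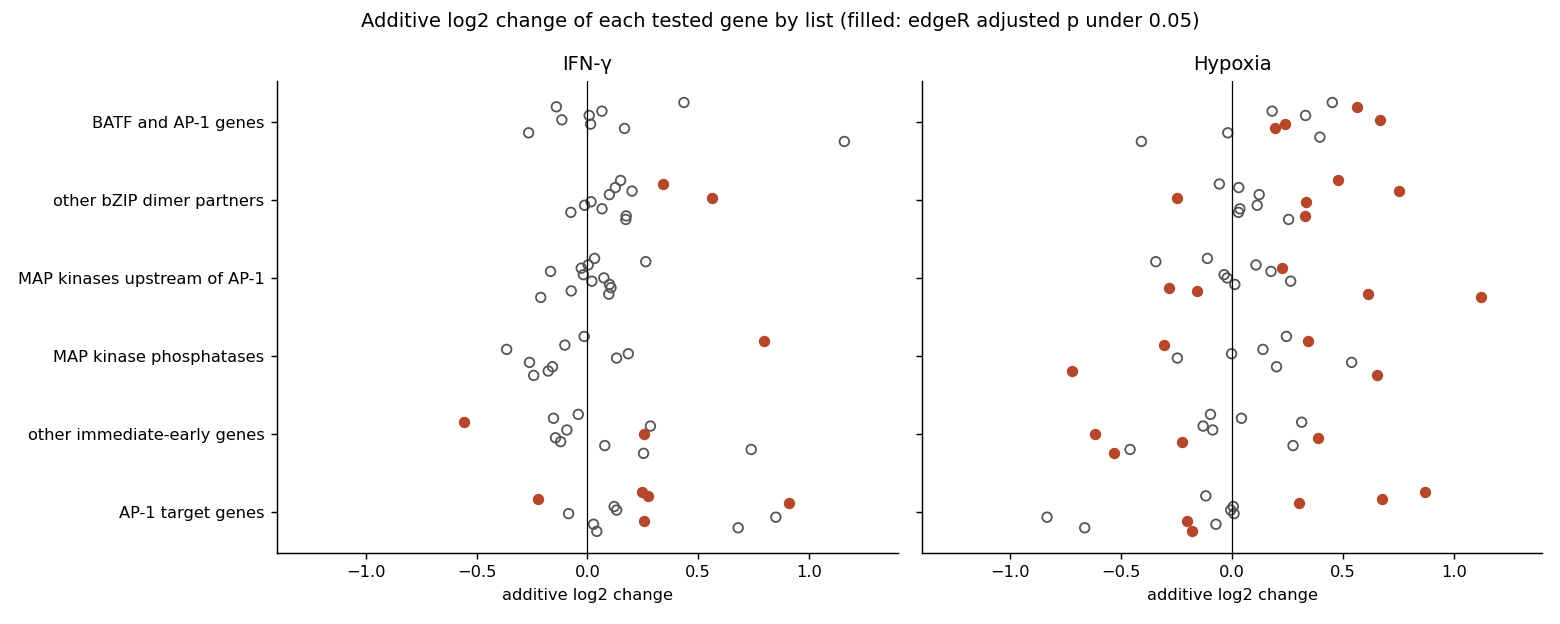
Additive log2 change (x axis) of every tested gene in 6 lists (y axis) with IFN-γ on the left and hypoxia on the right, where each point is 1 gene, filled when its edgeR adjusted p was under 0.05. Batf2 is left out on the left because its controls lie below 3 counts, so no filled point remains there for the BATF and AP-1 genes, while 4 of them are filled for hypoxia and 1 to 3 genes of each other list are lowered by hypoxia.

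The number of hypoxia calls among the 10 genes depended on the fit. All 4 genes were called with DESeq2's size factors, with at least 10 counts in every library and with counts halved. Total counts and no filter each called 3, Junb, Jund and Fosl2. With 2 hypoxic against 2 normoxic libraries and IFN-γ left out of the model, 2 of the 10 genes, Jund and Fosl2, were called, where 1.1% of all tested genes were raised. DESeq2's Wald test called Junb, Jund and Fosl2, where 3.76% of all genes given an adjusted p were raised. None of the 4 genes reached a log2 change of 1.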

How the data were processed

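RNA of 4 MC38 cultures was sequenced as strand-specific poly-A libraries (DNBSEQ, paired ends), and the study's text speaks of total RNA. The authors deposited raw read counts per gene, with no normalization, after alignment with HISAT2 to mm10 and counting with featureCounts. The counter's settings for strand, mates and repeated matches, and the annotation, are not given in the sources used here.

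Symbols were matched for 25275 of 27179 gene IDs. Genes were filtered by filterByExpr (minimum count 10), scaled by TMM and fitted in edgeR 4.0.16 (R 4.3.3) as oxygen plus IFN-γ, with 1 residual degree of freedom per gene and a common dispersion of 0.00222 (4.71% coefficient of variation). The prior degrees of freedom were infinite in this fit and between 3.52 and 33.3 in the alternatives by edgeR. Changes between 2 libraries used TMM-scaled counts with 0.5 added and exact 95% intervals, which cover counting error only. Among genes with 1 to 20 counts, 63.2% to 64.8% had an even count, so intervals were also computed from halved counts. Whether both ends of a fragment were counted was not tested. Levels per kilobase used exon lengths of GENCODE M21.

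On simulated data for the IFN-γ effect over 13580 genes, 100% of 200 genes changed 2-fold were recovered, 12 of 212 calls were false, and 0 genes were called when none was changed. The simulated counts had the fit's common dispersion for every gene and no hypoxia effect. Changes were placed only in genes above a minimum mean count, which left out genes as low as Batf. The simulation thus does not show how the fit treats differences between single cultures. Alternatives were DESeq2's size factors, total counts, DESeq2 1.42.0 (Wald test), no filter, at least 10 counts in every library, 2 against 2 libraries, a minimum log2 change of 1, and 5 counts added. Halved counts, the range over 1574 genes and the JUN shares with the RefSeq length were chosen after seeing the data, as were the motifs. The 10 genes, the lists and the rule for naming genes (all 10 genes, and from each list the 3 called genes with the largest additive log2 change) were chosen with earlier results of these data known. Genes of the lists named only in counts were named after their values were seen. The values of 1 gene among the AP-1 targets are not reported here, so 2 genes of that list are described.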

Additional observations from a re-analysis of the deposited data

Results flagged for a closer look

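Changes of opposite sign in the 2 backgrounds were seen for 3 genes, and none of the differences was tested, since each condition had 1 library. The log2 change of Fos with IFN-γ was 0.44 under normoxic and -0.38 under hypoxic conditions, and its change with hypoxia was 0.74 without and -0.074 with IFN-γ. Of these 4 intervals, only the one for hypoxia without IFN-γ excluded 0. For Batf the log2 change with hypoxia was 0.0025 without and -0.63 with IFN-γ, from 8 to 22 counts per library. The first of these compares 8 counts with 8, and with total counts it was -0.0089, so its sign was then the same as with IFN-γ. For Batf3 it was -0.22 without and 0.21 with IFN-γ, from 39 to 55 counts. All 4 intervals of Batf and Batf3 included 0.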

How the results depend on the processing

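No paired analysis was possible because each condition had 1 library, and leaving out a library leaves no residual degrees of freedom. Of 134 additive changes of the 10 genes under alternatives, 126 kept direction and call, 5 lost the call (Jun in 4 and Junb in 1) and 3 uncalled values near 0 turned sign. These were the IFN-γ changes of Junb (-0.0022) and Fos (-0.0081) with total counts and of Fos (-0.015) with 2 against 2 libraries. A missing adjusted p was treated as no call. DESeq2's Wald test gave none for the hypoxia changes of Batf, Batf2, Batf3, Fos and Atf3, which are counted among the 126. All 37 changes between 2 libraries stayed inside their counting interval with total counts and with 5 counts added, although the hypoxia change of Batf without IFN-γ (-0.0089) and the IFN-γ change of Junb in normoxia (-0.020) turned sign with total counts. Requiring 10 counts in every library left 0 of the 10 genes called for IFN-γ, because Batf2 was then not tested. For hypoxia, 2 of the 10 were called with 2 against 2 libraries and 0 at a log2 change of at least 1, against 4. Over all genes, those raised by IFN-γ numbered 353 with DESeq2's Wald test and 239 with 2 against 2 libraries, against 647. Those lowered by IFN-γ numbered 99 with DESeq2's size factors, 16 with its Wald test, 71 with no filter, 74 with at least 10 counts in every library and 3 with 2 against 2 libraries, against 149. Hypoxia raised 362 genes with the Wald test and 150 with 2 against 2 libraries, against 1115, and lowered 214 and 26, against 927. The causes were not tested. With at least 500 counts in every library, the central 95% of the difference between IFN-γ changes ran from -0.27 to 0.32 (8059 genes), and all 9 differences of the 10 genes that had one stayed inside their intervals with 5 counts added. Depth limits Batf, Batf3 and Fos, with at most 97 counts.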

Other observations

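Low counts were unevenly split between odd and even values. Between 475 and 534 genes had exactly 1 count in a library, while 1058 to 1091 had exactly 2. Among genes with 101 to 1000 counts, 50.8% to 52.5% were even. The Batf counts (8, 8, 22 and 14) were all even, and those of Batf3 (55, 47, 39 and 45) were all odd.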
